A study of Mus musculus with 2 samples.

Results

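The 39 Hox genes are described here as measured in Pdpn+ cells sorted from mouse kidney. They were chosen by name, as every gene of the deposited table whose symbol is Hoxa, Hoxb, Hoxc or Hoxd followed by a number, and they make up 39 of the 55471 genes listed. Hoxa contributed 11 genes, Hoxb 10, Hoxc 9 and Hoxd 9. The rule used no measured value. The study sorted EpCAM-CD45-Nephrin-Pdpn+ cells from kidneys of male C57BL/6J mice and sequenced 1 pooled poly(A) library per genotype, so that there was no replicate and no test between genotypes. VhlhKO mice carried Hoxb7-Cre-GFP/+ with Vhlh loxP/loxP, which deletes exon 1 of Vhlh, the mouse VHL locus, where Cre is active. Ctrl mice are given in the methods as Hoxb7-Cre-GFP/+, so by that account both groups carried the Cre and GFP transgene under the Hoxb7 promoter. The labels of the Ctrl sample do not settle this, since another entry gives Vhlh loxP/loxP with no Cre. The promoter is active in the collecting duct and other tubule segments, and the sort was designed to leave those epithelial cells out, so the sorted cells were not meant to carry the deletion. Cells of each genotype were pooled before sequencing, from 6 animals by one section of the methods and fewer by another, and were held in endothelial medium for some hours between sorting and RNA extraction. One label entry gives an age of 12 weeks and another a range of 8 to 12 weeks.

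Hox genes encode homeodomain transcription factors that give cells their address along the body axis. In mammals they lie in 4 clusters on different chromosomes, and genes at the same place in each cluster form a paralogue group with the same number. Low numbers lie at the 3′ end of a cluster and are used from anterior levels of the embryo. High numbers lie at the 5′ end and are used only posteriorly, with the highest in the hindgut, genital and limb ends. Many adult connective tissue, smooth muscle and epithelial cells keep the Hox set of the place they came from. In the mouse, genes of paralogue group 11 are needed together for the kidney to form. On GRCm38 the clusters lay at chr6:52162417-52260880 (Hoxa2 to Hoxa13, minus strand), chr11:96194316-96368256 (Hoxb, plus strand), chr15:102921103-103036852 (Hoxc, plus strand) and chr2:74668310-74765142 (Hoxd, plus strand).

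The libraries held 34465017 counts in VhlhKO and 31817115 in Ctrl. Where paired values carry no label, VhlhKO comes first. Vhl itself had 975 and 938 counts, which is a weak check of the labels because only part of the gene is deleted and the sort was designed to leave out the cells with the deletion, which was not measured in the sorted cells. The lymphatic identity given to the cells was checked against 8 of its markers, of which 4 reached 20 counts in a library. Pdpn was at 132 TPM in VhlhKO and 114 in Ctrl (a level corrected for gene length and library total), Flt4 was at 11.3 and 9.70 TPM, Prox1 was below 2 TPM in both, and Mmrn1 and Ccl21a had no count in either library. Lyve1 was read 128 and 10 times (4.56 and 0.385 TPM), a ratio of 11.9 with a 95% counting interval from 6.26 to 25.4, and was the 1 gene of this list past 2-fold. The 6 pan-endothelial genes summed to 10.0 and 8.29 TPM. Some markers of other cell types were far more abundant. The 9 fibroblast and pericyte genes summed to 3747 and 3660 TPM, most of it Acta2 (3445 and 3542 TPM). Others of that list were lower, with Col1a1 at 122 and 37.2 TPM, and Dcn and Lum below 1 TPM in both. The 5 parietal epithelial genes summed to 3514 and 3862 TPM, of which Akap12 alone was 2955 and 3332 TPM. The Hox genes are therefore described for Pdpn+ sorted cells, without a narrower name. Collecting duct markers, which would mark only part of the cells that drive Cre, were at 0 or 1 count except for Gata3 (121 and 62 counts). By the paper, the promoter is also active in proximal tubule and thick ascending limb. Proximal tubule markers summed to 11.1 and 13.5 TPM, most of it Lrp2 (1528 and 1041 counts). Of thick limb and distal tubule markers, Slc12a1 had 24 and 18 counts, Slc12a3 had 3 and 8, and Umod and Pvalb had no count. Whether Cre was active in the sorted cells, which expressed Hoxb7 itself (given below), was not tested.

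Across the clusters the cells expressed Hox genes of low to high paralogue number up to group 11 and, at a low level, Hoxc13. A gene was taken as present at 1 TPM or more. By this measure 32 of the 39 Hox genes were present in each library (82.1%), beside 28.1% of all genes in VhlhKO and 27.9% in Ctrl. All genes here means all 55471 listed, noncoding genes and pseudogenes among them. Hox genes are protein-coding, so the shares do not compare like with like. Together the Hox genes summed to 1629 TPM in VhlhKO and 1689 TPM in Ctrl. At least 10 TPM was reached by 28 genes in VhlhKO and 27 in Ctrl, and at least 100 TPM by 4 and 5. The order of the present genes by TPM was nearly the same in both libraries (Spearman rho 0.98 across 32 genes, a description across genes, which are not independent).

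**Figure D1:**
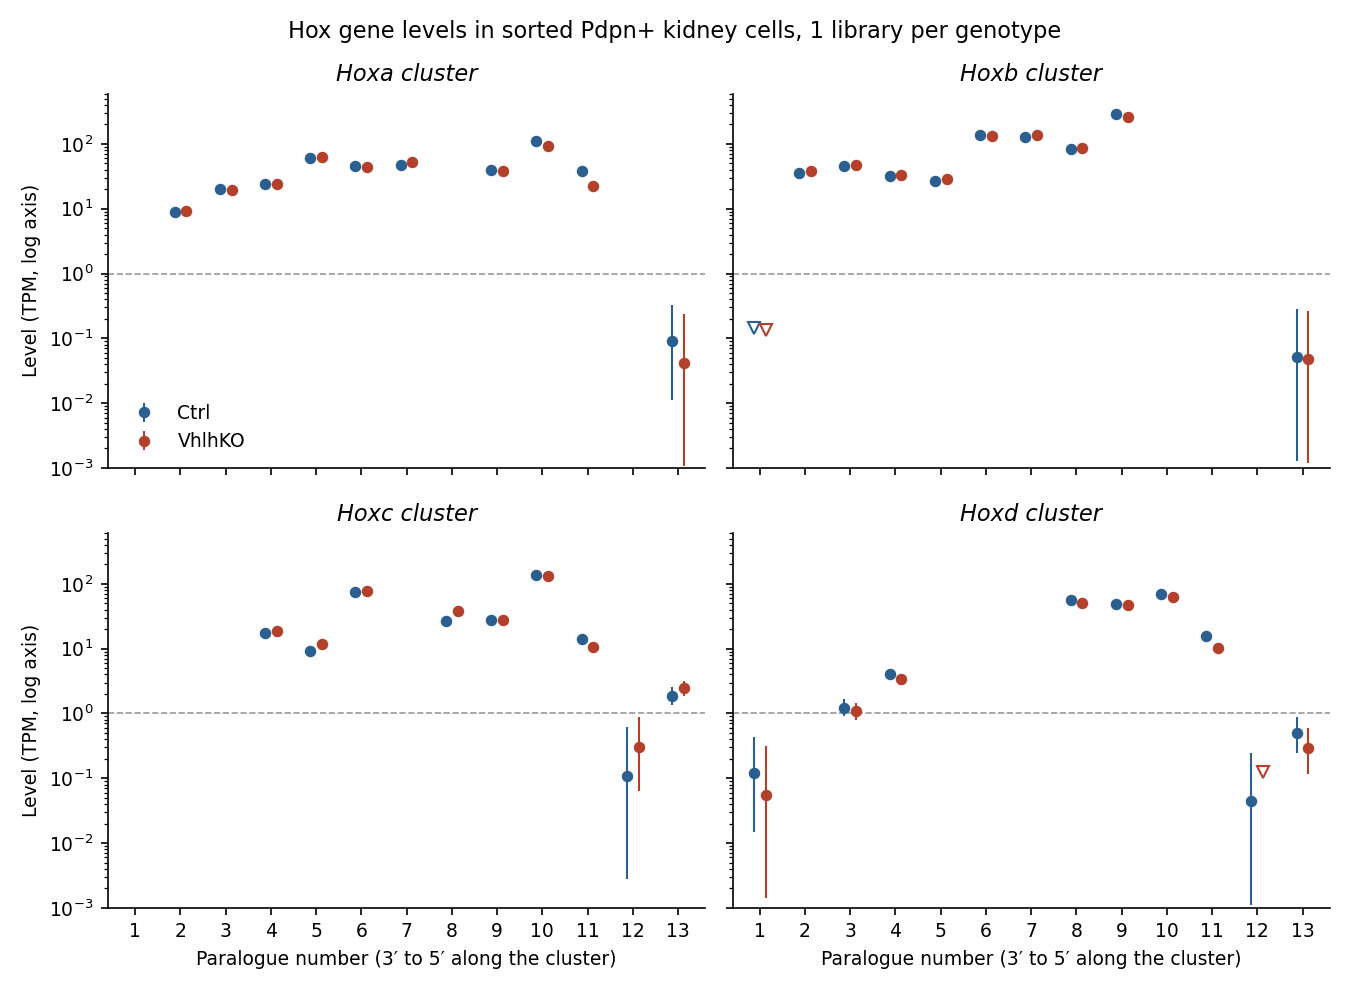
Level of each Hox gene (TPM, log axis) against its paralogue number, in 1 panel per cluster, with 38 of the 39 genes drawn. Points are single libraries, Ctrl in blue and VhlhKO in red, vertical lines are exact Poisson 95% intervals for counting error only, open triangles mark the level of 3 counts for genes with no count, and the dashed line is 1 TPM. Levels stayed near or above 10 TPM through the middle of each cluster and dropped below 1 TPM at the 5′ end, except for Hoxc13.

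The highest levels lay in the middle and 5′ part of the clusters. Hoxb9, a gene of the thoracic and more posterior trunk, was the most abundant Hox gene, with 258 TPM in VhlhKO and 286 TPM in Ctrl, and ranked 531 and 453 among all genes of the library. Hoxb7, whose promoter drives Cre in these mice, was at 135 and 128 TPM. Hoxc10 was at 132 and 138 TPM, Hoxb6 at 130 and 137 TPM, and Hoxa10 at 92.7 and 112 TPM. Hoxc10 and Hoxa10 belong to the paralogue group that sets lumbar identity in mouse. By sums over the clusters, group 9 held the largest share of the Hox level, 22.7% in VhlhKO and 23.8% in Ctrl, followed by group 10 with 17.7% and 18.9% and group 6 with 15.4% and 15.3%. The place of group 10 rests on Hoxc10 and Hoxd10, which share 8.70% and 5.73% of their exon bases with another gene on their strand. Leaving out all such genes removes both whole, which by construction lowers group 10. It then held 6.91% and 8.10%, behind group 6 (18.7% and 18.6%), group 7 (14.1% and 12.7%) and group 8 (13.1% and 12.1%). Group 9 stayed first (24.8% and 26.2%). The 5′ groups beyond 11 were nearly empty, with group 12 at 0.303 and 0.153 TPM and group 13 at 2.83 and 2.51 TPM.

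**Figure D2:**
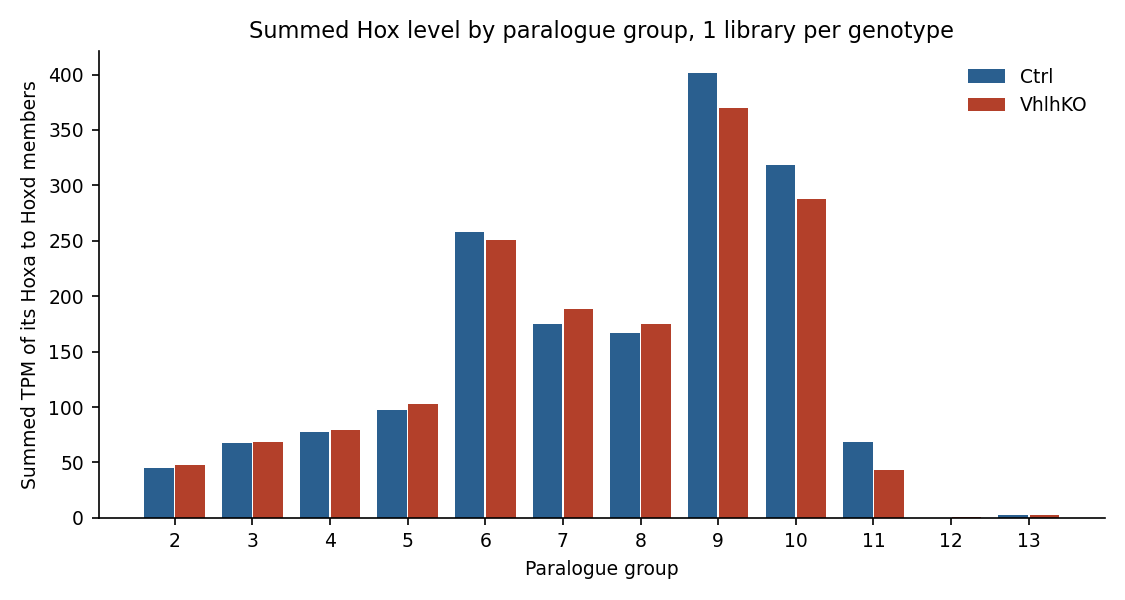
Summed TPM of the Hoxa to Hoxd members of each paralogue group from 2 to 13, with 1 bar per library (Ctrl blue, VhlhKO red) and no error bar, since there is 1 library per genotype. Group 9 is the tallest at 401 TPM in Ctrl and 370 TPM in VhlhKO, and group 11 falls to 68.8 and 43.0 TPM.

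The boundary at the 5′ end was steep and differed by cluster. In Hoxa, TPM fell from Hoxa11 (22.1 in VhlhKO and 38.8 in Ctrl) to Hoxa13, which had 1 and 2 counts. In Hoxb, the neighbour of Hoxb9 on the 5′ side is Hoxb13, and it had 1 count in each library. The most abundant Hox gene of the cells thus lay next to one that was almost unread. In Hoxd, Hoxd11 (10.2 and 15.7 TPM) was followed by Hoxd12 with 0 and 1 count and Hoxd13 with 7 and 11 counts. Hoxc alone had a 5′ gene above 1 TPM beyond this point: Hoxc13, best known for its role in hair and nail, had 58 and 41 counts, or 2.45 and 1.87 TPM, while Hoxc12 between it and Hoxc11 had 3 and 1 counts. The most 5′ group present was therefore 11 in Hoxa, 9 in Hoxb, 13 in Hoxc and 11 in Hoxd, and it was the same in both libraries.

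The 3′ end was uneven as well. Hoxa2, a gene of hindbrain levels, was at 9.26 TPM in VhlhKO and 8.99 TPM in Ctrl. In contrast, Hoxb1 had no count in either library, which allows up to 3 counts per library, or 0.134 TPM in VhlhKO and 0.145 TPM in Ctrl at its length, and Hoxd1 had 1 and 2 counts. Hoxb2, next to Hoxb1, stood at 38.7 and 35.6 TPM. In Hoxd the anterior genes were low (Hoxd3 1.09 and 1.23 TPM, Hoxd4 3.35 and 4.00 TPM), and the level stepped up to 50.9 and 56.3 TPM at Hoxd8. Hoxd3 and Hoxd4 share exon bases with each other and with Gm28230 (62.3% and 52.3% of their exon length), so the split of reads among these 3 genes is uncertain.

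By cluster, Hoxb carried 46.5% of the summed Hox level in VhlhKO and 45.8% in Ctrl, Hoxa 23.1% and 24.2%, Hoxc 19.6% and 18.4%, and Hoxd 10.8% and 11.5%. The summed counts of each cluster were compared between the libraries after scaling by TMM, a method that sets library sizes from the bulk of genes. The count ratio of VhlhKO over Ctrl was 0.918 for Hoxa (0.893 to 0.944), 0.985 for Hoxb (0.964 to 1.006), 1.05 for Hoxc (1.01 to 1.08) and 0.887 for Hoxd (0.849 to 0.927). The ranges are exact conditional 95% intervals (Clopper-Pearson), and here and below they cover counting error only and say nothing of the spread between mice or pools. In bulk RNA, fewer cells of a type and less RNA per cell cannot be told apart.

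No Hox gene differed by 2-fold between the libraries. Of the 39 genes, 32 reached 20 counts in one library or both and were compared by the log2 ratio of VhlhKO over Ctrl with 0.5 CPM (a scaled count, with no length correction) added to both sides. None of the 32 was at least 2-fold higher in VhlhKO, beside 1.71% of the 15275 genes measured in the same way, and none was at least 2-fold lower, beside 0.524%. At 1.5-fold, none was higher (4.75% of all measured genes) and 2 were lower, Hoxa11 and Hoxd11 (1.82% of all measured genes). The median log2 ratio of the 32 genes was 0.00, as was that of all measured genes, and 16 genes lay above 0 and 16 below. By the counting interval alone, 4 Hox genes were above 1 (Hoxa7, Hoxb2, Hoxc5 and Hoxc8; 12.5%, beside 19.0% of all measured genes) and 6 were below 1 (Hoxa10, Hoxa11, Hoxb9, Hoxc11, Hoxd8 and Hoxd11; 18.75%, beside 17.3%).

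**Figure D3:**
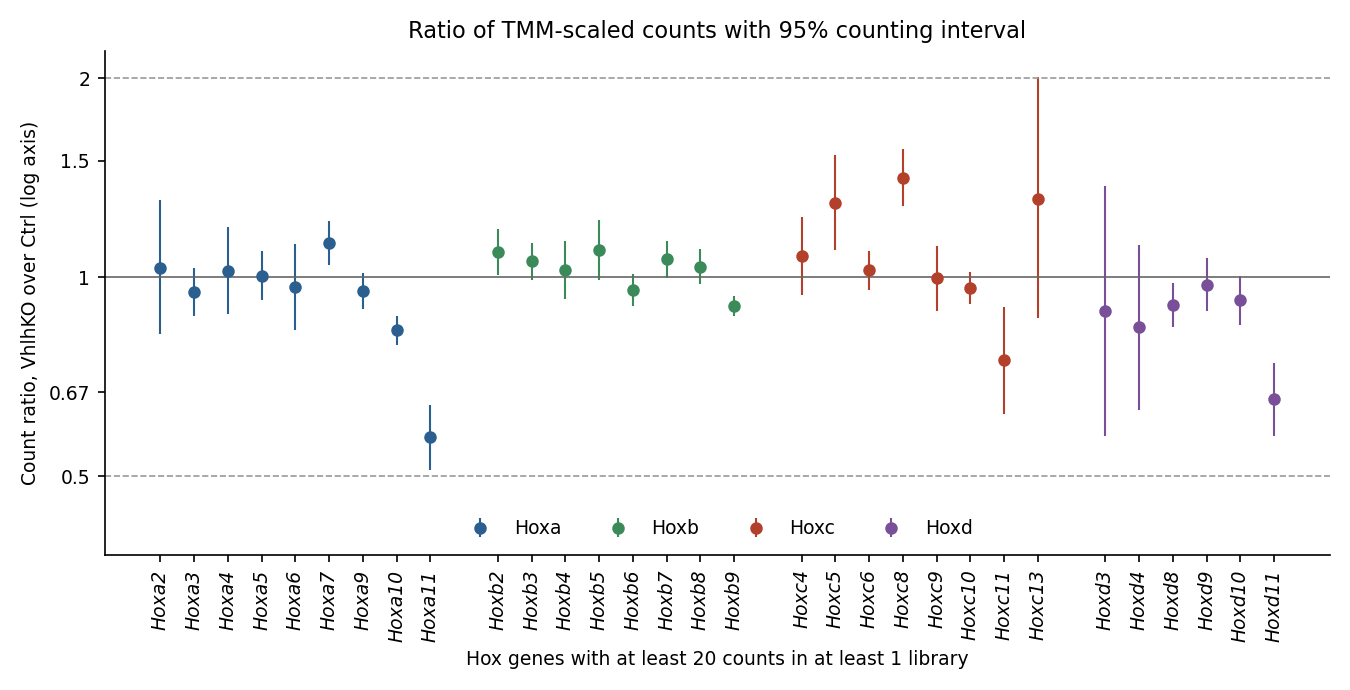
Count ratio of VhlhKO over Ctrl (log axis) for 31 of the 32 Hox genes that reached 20 counts in a library, ordered by cluster and paralogue number. Vertical lines are 95% counting intervals, the solid line is a ratio of 1 and dashed lines mark 0.5 and 2. The 3 genes of paralogue group 11, Hoxa11 (0.572), Hoxc11 (0.748) and Hoxd11 (0.653), are the lowest of their clusters, and Hoxc8 (1.41) is the highest of all.

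The lowest ratios were those of paralogue group 11, whose members act redundantly in the mouse metanephros, where they work with Eya1 and Pax2 on genes of the nephron progenitors. Hoxa11 (chr6:52242106-52245810) was read 486 times in the VhlhKO library and 789 times in the Ctrl library, a ratio of 0.572 (0.510 to 0.642). Hoxd11 (chr2:74679557-74687016) had 414 and 589 counts, a ratio of 0.653 (0.575 to 0.742). Hoxc11 (chr15:102954427-102957708) had 207 and 257 counts, a ratio of 0.748 (0.620 to 0.902). All 3 genes of the group were thus lower in the VhlhKO library with intervals below 1. Summed over the group the level was 43.0 TPM in VhlhKO and 68.8 TPM in Ctrl, with a count ratio of 0.629 (0.582 to 0.679). The difference did not rest on the scaling between libraries: Hoxa11 took 4.73% of the Hoxa counts in VhlhKO (4.33% to 5.16%, exact Clopper-Pearson) and 7.58% in Ctrl (7.08% to 8.11%). Hoxd11 likewise took 10.4% of the Hoxd counts (9.49% to 11.4%) and 14.2% (13.1% to 15.3%). Hoxd11 shares 10.8% of its exon bases with Gm28309, which had 2 and 5 counts. Hoxa11 lies across from the antisense gene Hoxa11os, and Hoxa11os was lower by a similar ratio (given below). The libraries were strand-specific, but no source used here states whether the counting used strand.

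The promoters of group 11 genes are shown because these genes were lower together. The reference held windows for Hoxa11 and for 2 starts of Hoxd11. Each run is the 250 bases before the annotated start, from RefSeq on GRCm38.p6, on the strand of the gene, with matches to 4 short motifs in capitals on either strand: ACGTG (the core bound by hypoxia-inducible factors), TAATTA (a homeodomain core), TGATNNAT (a site type of Pbx with Hox proteins) and TATAAA (the TATA box).
Hoxa11, chr6:52245811-52246060, minus strand: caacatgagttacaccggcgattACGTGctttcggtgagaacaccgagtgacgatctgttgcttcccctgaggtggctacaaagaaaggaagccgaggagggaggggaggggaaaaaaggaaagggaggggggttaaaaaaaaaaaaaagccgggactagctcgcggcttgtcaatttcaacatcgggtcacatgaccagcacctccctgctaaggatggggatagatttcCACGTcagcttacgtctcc
Hoxd11, first start, chr2:74679308-74679557, plus strand: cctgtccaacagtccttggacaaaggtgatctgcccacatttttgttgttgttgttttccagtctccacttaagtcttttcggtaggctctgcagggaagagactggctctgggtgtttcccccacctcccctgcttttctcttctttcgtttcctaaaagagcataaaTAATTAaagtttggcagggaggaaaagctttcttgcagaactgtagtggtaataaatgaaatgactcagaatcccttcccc
Hoxd11, second start, chr2:74682073-74682322, plus strand: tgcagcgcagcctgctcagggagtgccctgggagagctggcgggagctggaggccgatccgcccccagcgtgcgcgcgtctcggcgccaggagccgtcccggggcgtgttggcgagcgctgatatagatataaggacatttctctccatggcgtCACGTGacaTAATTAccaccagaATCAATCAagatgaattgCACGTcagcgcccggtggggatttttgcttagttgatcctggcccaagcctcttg
Hoxa11 held ACGTG at -227 and -19 from the start, counted at the first base of the match. The first Hoxd11 start held TAATTA at -81. The second held TAATTA at -87, TGATNNAT at -73 and ACGTG at -55 and at -96 and -95, where the palindrome matched on both strands with overlap. Across the 24 Hox windows in the table, which cover 22 of the 39 genes, ACGTG stood in 20.8% beside 16.6% of all 32851 promoters, TAATTA in 8.33% beside 4.84%, TGATNNAT in 16.7% beside 7.68% and TATAAA in 16.7% beside 12.4%. The Hox windows had a median GC content of 58.6% beside 52.4% for all. A match to such short letters is a description of the sequence and does not show a site in use.

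Apart from group 11, ratios below 1 were small. Hoxa10 had 2915 and 3259 counts in VhlhKO and Ctrl, a ratio of 0.831 (0.790 to 0.874). Hoxb9 had 6374 and 6540 counts, a ratio of 0.906 (0.875 to 0.937), and Hoxd8 had 1342 and 1374 counts, a ratio of 0.908 (0.841 to 0.979). The deep counts behind Hoxb9 and Hoxa10 resolve differences of this size between 2 libraries, though not between genotypes. The other members of groups 9 and 10 had intervals that held 1, among them Hoxc10 with a ratio of 0.963 (0.909 to 1.02) and Hoxd10 with 0.922 (0.848 to 1.004).

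The largest ratio above 1 was that of Hoxc8, a trunk gene of the brachial to thoracic levels. Its counts were 1029 (VhlhKO) and 676 (Ctrl), a ratio of 1.41 (1.28 to 1.56), and took 14.8% of the Hoxc counts in VhlhKO (14.0% to 15.6%) and 10.9% in Ctrl (10.2% to 11.7%). Its neighbour Hoxc9 had 643 and 600 counts and a ratio of 0.996 (0.890 to 1.11). On the other side, Hoxc6 had 1780 and 1615 counts and a ratio of 1.02 (0.957 to 1.10). A difference of the size seen at Hoxc8 thus did not extend to the next gene on either side. Hoxc5 had 351 and 252 counts, a ratio of 1.29 (1.10 to 1.53). It shares 5.37% of its exon bases with Hoxc10. Hoxa7 (1475 and 1215 counts) had a ratio of 1.13 (1.04 to 1.22) and Hoxb2 (1298 and 1105 counts) one of 1.09 (1.01 to 1.18). Hoxc13, at the far 5′ end, had a ratio of 1.31 with an interval from 0.866 to 2.01, too wide at its depth to show a difference.

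Ordered along the clusters, the log2 ratios leaned from slightly above 0 at the 3′ side to below 0 at groups 9 to 11. In groups 1 to 8, 15 of 21 measured genes lay above 0, with a median of 0.04. In group 9, none of 4 lay above 0 (median -0.05), and in groups 10 and 11 none of 6 did (median -0.33). Hoxc13, the only measured gene of group 13, lay above 0 (0.29), against this order. Most single genes had intervals that held 1, so this order describes the points and is not a count of differences. Across the 32 measured genes, Spearman's rho between paralogue number and log2 ratio was -0.40. It was -0.61 over the 10 Hoxa genes, -0.52 over 8 Hoxb genes, -0.40 over 8 Hoxc genes and -0.09 over 6 Hoxd genes. These are correlations across genes that share the same 2 libraries, and in Hoxd, where rho was near 0, all 6 measured genes lay below 0.

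Genes between the Hox genes were measured too. The annotation places 46 other genes inside the 4 clusters, mostly antisense and other noncoding RNAs, and 16 of them reached 20 counts in a library. None was past 2-fold. Their median log2 ratio was -0.24, with 5 intervals below 1 and none above, beside 17.3% and 19.0% of all measured genes. Hoxa11os had 77 and 128 counts, a ratio of 0.559 (0.416 to 0.747), beside 0.572 for Hoxa11 on the other strand. Hotair, a noncoding RNA between Hoxc12 and Hoxc11 that is studied for its role in Polycomb silencing, had 19 and 34 counts, a ratio of 0.519 (0.280 to 0.936). Its interval is wide because the counts are few. Hoxb5os (79 and 109 counts) had a ratio of 0.673 (0.498 to 0.908), while Hoxb5 on the other strand had 1.10 (0.988 to 1.22). Gm53, a long noncoding RNA between Hoxb13 and Hoxb9, was the most counted of them (2186 and 2330 counts) with a ratio of 0.872 (0.822 to 0.925), close to the 0.906 of Hoxb9. Hotairm1, Hoxb3os and Hoxd3os1 had intervals that held 1.

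**Figure D4:**
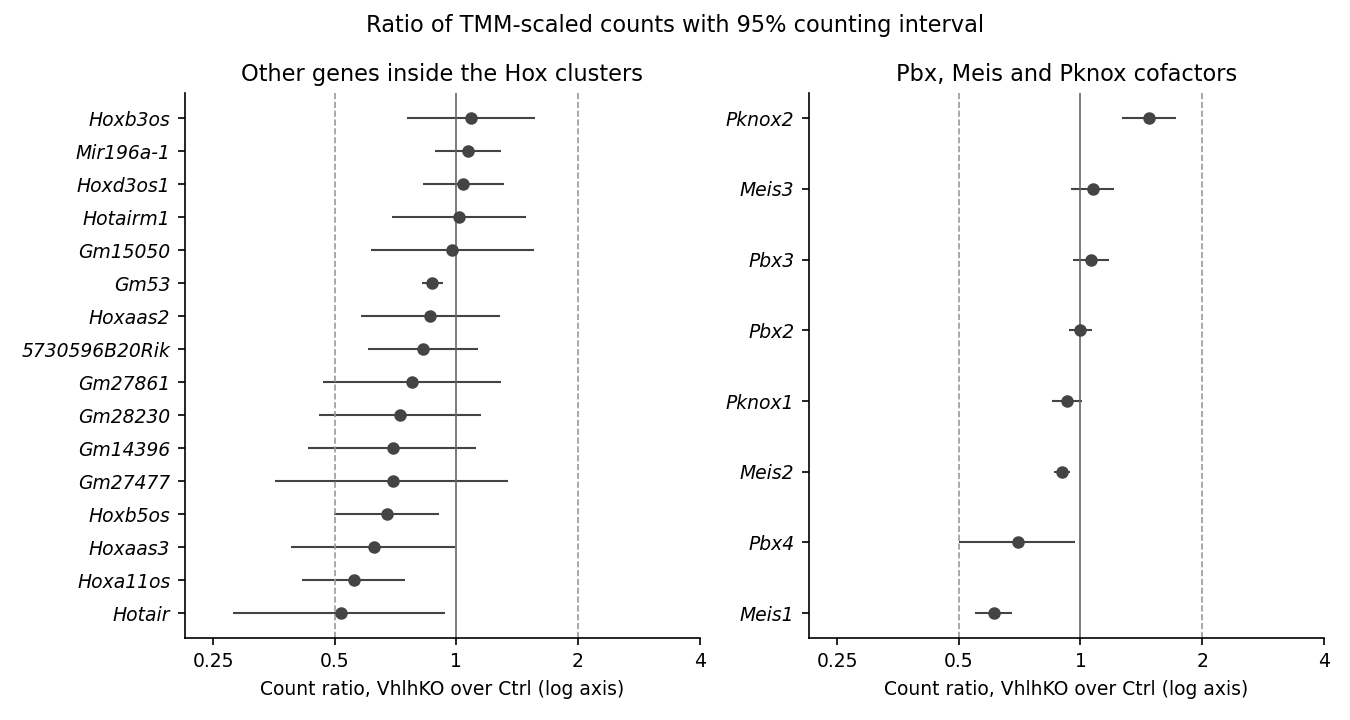
Count ratio of VhlhKO over Ctrl (log axis) with 95% counting intervals, left for the 16 measured genes that lie inside the Hox clusters and are not Hox genes, right for 8 of the 9 Pbx, Meis and Pknox genes. The solid line is a ratio of 1 and dashed lines mark 0.5 and 2. Hotair (0.519) and Hoxa11os (0.559) are lowest on the left, Meis1 (0.610) is lowest and Pknox2 (1.48) highest on the right.

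The clusters also hold microRNA genes whose products pair with Hox messenger RNAs, and their sequences are shown because the best known site, in Hoxb8, can be read directly. Seeds (bases 2 to 8) are in capitals, and the RNAs form 2 seed families.
miR-196a-5p: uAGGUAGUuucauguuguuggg
miR-196b-5p: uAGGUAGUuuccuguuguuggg
miR-10a-5p: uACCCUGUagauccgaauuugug
miR-10b-5p: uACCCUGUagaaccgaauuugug
Bases 418 to 439 of the Hoxb8 3′ untranslated region paired with miR-196a-5p at 21 of 22 positions, with capitals marking paired bases and the 1 small letter a G:U pair within the seed.
Hoxb8 site: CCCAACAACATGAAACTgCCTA
Perfect seed matches of the 7-mer ACTACCT stood in the 3′ untranslated regions of 8 of 39 Hox genes (20.5%) and of 6.08% of 20969 genes. The 8 were Hoxa4, Hoxa5, Hoxa7, Hoxa9, Hoxb1, Hoxb6, Hoxb7 and Hoxc8, with 4 matches in Hoxa7 and 2 in Hoxc8. One of the Hoxa7 matches, with the seed match in capitals, and the first of Hoxc8 read as follows.
Hoxa7 site, bases 486 to 507: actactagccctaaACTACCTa
Hoxc8 site, bases 121 to 142: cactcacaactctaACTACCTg
Hoxa7 and Hoxc8 are among the 4 Hox genes with an interval above 1, while the other 5 measured genes with a match (Hoxa4, Hoxa5, Hoxa9, Hoxb6 and Hoxb7) and Hoxb8, with 2195 and 1966 counts and a ratio of 1.04 (0.976 to 1.10), had intervals that held 1. The mature microRNAs are too short for a poly(A) library. Reads over the gene Mir196a-1, which lies just 3′ of Gm53 on the same strand, numbered 248 and 216, a ratio of 1.07 (0.885 to 1.29), and Mir10a had 17 and 13. Mir196a-2 and Mir196b had no counts.

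Hox proteins bind DNA together with TALE homeodomain proteins of the Pbx, Meis and Pknox families. All 9 genes of this list were measured and none was past 2-fold. Intervals lay below 1 for 4 and above 1 for 1, beside 17.3% and 19.0% of all measured genes. Meis1, a cofactor of many Hox proteins, had 588 and 895 counts, a ratio of 0.610 (0.549 to 0.678). Meis2 had 3587 and 3710 counts and a ratio of 0.898 (0.858 to 0.941). Pknox2 went the other way, with 434 and 273 counts and a ratio of 1.48 (1.27 to 1.72). Pbx4 had 67 and 89 counts and a ratio of 0.699 (0.502 to 0.971).

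The chromatin regulators that keep Hox clusters on or off were within 2-fold, and the intervals that did not hold 1 all lay below it, beside 17.3% of all measured genes below 1 and 19.0% above. Of 8 Trithorax-type activators and histone H3 lysine 27 demethylases, all were measured, none was past 2-fold, and 2 had intervals below 1, Kmt2d with 0.895 (0.860 to 0.931) and Kdm6b with 0.848 (0.804 to 0.894). Of 15 Polycomb genes, all were measured, none was past 2-fold and 6 had intervals below 1. Among them Ezh2, the methyltransferase of Polycomb repressive complex 2, had 1015 and 1086 counts and a ratio of 0.868 (0.796 to 0.947), and Jarid2 a ratio of 0.867 (0.788 to 0.954). The relatives of the Hox genes outside or at the edge of the clusters were near absent. None of 9 ParaHox and Evx-type genes had enough counts, 7 of them (Cdx1, Cdx2, Cdx4, Gsx1, Gsx2, Evx1 and Mnx1) had no count in either library, and Evx2, beside Hoxd13, had 1 in each.

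Of 7 genes of embryonic mouse kidney development, some of them partners or targets of paralogue group 11, 6 were measured and none was past 2-fold. Pax2, a transcription factor of renal epithelial lineages, had 2561 and 3065 counts, a ratio of 0.776 (0.736 to 0.818). Sall1, another factor of the nephron lineage, had 4981 and 5838 counts, a ratio of 0.793 (0.763 to 0.823). Both ratios lay below 1, and a link to the lower group 11 genes was not tested. Osr1, a marker of early renal mesenchyme, was higher, with 226 and 129 counts and a ratio of 1.63 (1.31 to 2.04), and so was Itga8, an integrin of mesenchyme, with 205 and 148 counts and 1.29 (1.04 to 1.60). Gdnf and Eya1 had intervals that held 1, and Six2, the marker of embryonic nephron progenitors, had only 2 and 6 counts.

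Other cell type markers moved between the libraries as well. Leukocyte markers (5 of 7 measured) summed to 212 TPM in VhlhKO and 73.5 TPM in Ctrl, with Lyz2 at 159 and 44.6 TPM and Cd3e at 0. Of the 5, 3 had intervals above 1. Ptprc, at 24 and 12 counts, had an interval that held 1 (0.894 to 4.08). Csf1r, at 279 and 307 counts, went the other way, with a ratio of 0.844 (0.715 to 0.996). Of the fibroblast and pericyte markers, 8 of 9 were measured and 4 were at least 2-fold higher in VhlhKO, among them Col1a1 (122 and 37.2 TPM). Intervals lay above 1 for 6 and below 1 for 1, Acta2, the most abundant of them, with 0.977 (0.967 to 0.987). Podocyte markers (5 of 6 measured) summed to 361 and 235 TPM, and 1 was at least 2-fold higher in VhlhKO. Intervals lay above 1 for 3 and below 1 for 1, Nphs1, which encodes Nephrin, at 44 and 77 counts. Of the 5 parietal epithelial markers, all measured, 3 had intervals below 1, including Akap12 with 0.891 (0.885 to 0.896) and Pax8 with 0.868 (0.836 to 0.901), and 2 had intervals above 1, Krt8 with 1.53 (1.42 to 1.64) and Cldn1 with 1.06 (1.03 to 1.09). Proximal tubule markers summed to 11.1 and 13.5 TPM, and 3 of the 5 measured were at least 2-fold lower in VhlhKO: Slc34a1 (0 and 51 counts), Fbp1 (0 and 42) and Slc5a2 (1 and 28). Lrp2 went the other way, with a ratio of 1.36 (1.26 to 1.48). The part of these shifts in the ratios of Hoxa11, Hoxc11, Hoxd11, Hoxc8 and the cofactors was not tested, and with 1 pool per genotype the genotype, the pool and the makeup of the sort cannot be told apart.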

How the data were processed

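RNA was measured in 1 library of sorted Pdpn+ kidney cells from Ctrl mice and 1 from VhlhKO mice. Per the labels and methods, the authors made poly(A)-selected, strand-specific, paired-end libraries. Tools listed in the submitters' processing notes, all without a version, are STAR and cutadapt, featureCounts of Subread, DESeq2, and for quality control bcl2fastq, MultiQC and FastQC, with GRCm38 (mm10) as build. No source used here states the annotation release or the strand setting of the counting. Per gene, the authors deposited raw counts, not normalized, and TPM. TPM reported by the authors implied gene lengths equal to the merged exons of GENCODE M21 (within 0.1%) for 98.5% of genes with counts in VhlhKO, 98.6% in Ctrl and all Hox genes with counts. A few genes are not reported here singly. The table's log2 fold changes and p-values were not used.

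TMM factors from edgeR 4.0.16 in R 4.3.3, 0.997 (VhlhKO) and 1.003 (Ctrl), scaled the counts. Log2 ratios had 0.5 CPM added, equal to 17.2 and 16.0 counts, and a rule of size of 2-fold was applied to genes that reached 20 counts in a library. With 1 library per genotype no p-value was computed. Intervals are exact (Clopper-Pearson, or Poisson for single counts) at 95%. Reads carry no molecular identifiers, so intervals and the floor of 3 counts cover counting error only. Printed ratios of single genes are count ratios without the 0.5 CPM. Ratio and interval code was tested on simulated data. All Hox genes could be named. Of the other lists, the genes with the largest log2 ratios, the most abundant and those at 0 were named. Beyond this rule Meis2, Eya1, Gdnf, Six2, Csf1r, Dcn, Lum, Evx2, Mir10a, Mir196a-2, Mir196b and Gm28309 were chosen after their values were seen. The Hox genes and the gene lists were chosen with earlier results of these data known. Alternatives were total counts, DESeq2 (1.42.0) size factors, TPM, other pseudocounts, minimums, folds and gene lengths. Promoter and microRNA sequences are from RefSeq (GRCm38.p6), and gene positions and 3′ untranslated regions from GENCODE M21. Python 3.11.15, numpy 2.4.6, pandas 2.3.3, scipy 1.17.1 and matplotlib 3.10.9 were used.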

Additional observations from a re-analysis of the deposited data

How the results depend on the processing

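No Hox gene was past 2-fold in either direction under total counts, DESeq2 size factors, TPM or 0.05 CPM added, while at 1.5-fold 2 were lower. None passed with 5 CPM added, count minimums of 1 or 100, or a 3-fold rule, but these 4 settings could hardly add a gene. The minimum of 100 and the 3-fold rule only narrow the set, and 5 CPM pulls ratios toward 0. At a minimum of 1, the 0.5 CPM added pulls the genes let in toward 0. The median log2 ratio of the measured Hox genes ranged from -0.02 to 0.03 under the scalings, pseudocounts and minimums above and without the genes that overlap another on the same strand. Single log2 ratios stayed inside their counting intervals under every scaling and pseudocount, except Hoxa11 with 5 CPM added (-0.63), which by construction pulls values toward 0. Cluster shares depend on gene length. With the longest transcript they were 25.9%, 43.8%, 20.4% and 9.88% for Hoxa, Hoxb, Hoxc and Hoxd in VhlhKO and 27.2%, 43.1%, 19.1% and 10.7% in Ctrl. With no length correction they were 26.3%, 45.7%, 17.8% and 10.2% in VhlhKO and 27.7%, 44.8%, 16.4% and 11.1% in Ctrl. Without overlapping genes, which removes Hoxc10 and Hoxd10 among others, Hoxb rose to 56.5% and 55.9%, Hoxc was 13.0% and 11.8%, and Hoxd 7.33% and 7.62%. Hoxb and paralogue group 9 held the largest share in all of these. The Hoxd ratio taken from summed TPM was 0.902 with all its genes. Without overlapping genes, Hoxd11 among them, it was 0.932. The most 5′ group present became 11 in Hoxc at 5 TPM and 13 in Hoxd at 0.1 TPM, in both libraries. Using only exon bases that no other gene shares, a choice made after seeing the data like the median without overlapping genes, moved no boundary and no cluster ratio beyond its interval. No paired analysis was possible because each genotype has 1 library. Hoxc13 and Hoxd3 have few counts, and a difference between the libraries was not detectable for them at this depth. No setting gives the spread between pools.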
